A study of Mus musculus with 8 samples.

Results

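The cytosolic ribosomal proteins are the proteins of the large (Rpl, Rplp) and small (Rps) subunits of the ribosome that works outside the mitochondria. Their probes were chosen by gene symbol alone (Rpl, Rplp or Rps followed by a number, or Rpsa, with the S6 kinase genes Rps6k left out), which gave 78 probes for 63 gene symbols of 25697 probes for 18120 symbols on the array. RNA came from STHdh striatal cells, a conditionally immortalized mouse line derived from embryonic striatal progenitors, which carried wild-type huntingtin in both groups. In 4 samples the cells had been transfected with a pcDNA3.1 plasmid carrying the cDNA of mouse Bcl11b, a zinc finger transcription factor enriched in the striatum, and in 4 samples with pcDNA3.1 (mock; the labels also call these cells wild-type). RNA was taken 2 days after transfection and hybridized to Illumina MouseRef-8 v2 arrays, 1 array per sample. The comparison asks which transcripts differ when the level of Bcl11b is raised. The cells are 1 immortalized line under transient transfection, so a sample can hold transfected and untransfected cells side by side, and fewer responding cells cannot be told apart from a smaller response per cell.

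A ribosome holds 1 copy of nearly all of these proteins, and a cell makes them in matched amounts because unassembled ones are degraded. Their mRNAs are short and abundant, and most start with a C followed by a run of pyrimidines (the 5′ terminal oligopyrimidine or TOP motif), through which the growth kinase mTOR and the RNA-binding protein Larp1 set how strongly they are translated. When assembly of the ribosome is disturbed, free Rpl5 and Rpl11 bind Mdm2 together with the 5S rRNA and so stabilize p53, which makes this gene group a sensor of growth and stress as well as a structural one. An array measures the mRNA and not its translation.

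The pyrimidine run at the start could be read from the RefSeq promoters of GRCm38.p6 for 49 of the 63 symbols, with 59 start sites in all. A run of at least 6 C or T bases, touching the stretch from 5 bases before to 5 after the annotated start, was present at 42.4% of these starts and at 21.0% of the 32851 starts of all genes. A run of at least 10 was present at 23.7% and 5.10%. The windows of 7 members described later are printed to show how far the members differ in this feature, each with 15 bases before the start and 15 from the start on, 5′ to 3′ on the strand of the gene, with the run in capitals.
Rps6 (chr4:86857353-86857382, minus strand): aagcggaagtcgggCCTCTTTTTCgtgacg
Rps27 (chr3:90213634-90213663, minus strand): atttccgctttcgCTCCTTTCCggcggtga
Rpl38 (chr11:114668565-114668594, plus strand): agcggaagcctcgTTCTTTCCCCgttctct
Rps15a (chr7:118116133-118116162, minus strand): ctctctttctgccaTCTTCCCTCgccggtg
Rps25 (chr9:44407699-44407728, plus strand): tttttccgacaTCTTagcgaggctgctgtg
Rpl5 (chr5:107900513-107900542, plus strand): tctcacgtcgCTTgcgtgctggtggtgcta
Rps3 (chr7:99483695-99483724, minus strand): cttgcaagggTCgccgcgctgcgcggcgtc
The runs of Rps6 and Rpl38 were 10 bases long and those of Rps27 and Rps15a 9, whereas the annotated starts of Rps25, Rpl5 and Rps3 had runs of 4, 3 and 2 bases. An annotated start can lie some bases away from the start that cells use, so a short run in this window says only that these letters are not there.

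Further letter strings were searched on both strands from 250 bases before to 50 after each start. CTCTTTC, a pyrimidine stretch that can overlap the run at the start, was found in 30.5% of the members' windows and in 8.16% of all windows. ACTTCCGG, which the ETS factor GABPA can bind, was found in 13.6% and 3.89%, and AAGATGGC, which YY1 can bind, in 11.9% and 2.75%. TATAAA, the TATA box, was in 6.78% of the members' windows and 13.6% of all windows. Among the genes detected on all 8 arrays the 4 shares were 6.95%, 9.34%, 5.20% and 6.65%. Against these the gap was widest for the pyrimidine stretch, and for the TATA box there was next to none. The 63 genes lie on 17 chromosomes, 4 of them on the X, and 13 lie on a single chromosome.

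The arrays measured the members near the top of their scale. A probe is called detected here where its deposited p-value for detection above the negative beads was under 0.01. Of the 78 probes, 65 were detected on all 8 arrays, 3 on some and 10 on none, against 9360 of 25697 probes detected on all 8. Of the 65, 39 were among the brightest 1% of the array's probes and 59 among the brightest 10%. A probe's brightness depends on its sequence as well as on the RNA, so this places the probes on the scanner's scale and does not rank the proteins. On the deposited signals, which were background-subtracted but not normalized between arrays, the median probe was at 53.9, 31.6, 41.1 and 45.8 on mock arrays 1 to 4 and at 26.0, 25.2, 20.1 and 30.2 on Bcl11b arrays 1 to 4. The values that follow are log2 of the quantile-normalized signal, which gives every array the same distribution, and a change is always Bcl11b minus mock.

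The labels were checked first. The single Bcl11b probe was not detected on any array, with background-subtracted signals from -12.4 to 5.5, so the arrays do not show the transfected gene. Of 8 genes of mature medium spiny neurons, the main neurons of the striatum (Drd2, Adora2a, Ppp1r1b and others), and of 4 general neuronal genes, none was detected on any array, and neither were 5 astrocyte and oligodendrocyte and 4 microglial genes. Of 6 neural progenitor genes, Nes, Sox2, Dlx1 and Dlx2 were detected on all 8 arrays, as were Col1a1 and Vim of 5 mesenchymal genes. The cells thus carried progenitor transcripts and no transcript of the mature striatal neuron among those listed that the arrays detected at this limit. By PCR, an unlike measure, the paper reported Ppp1r1b, Rgs9 and Bcl11b in cells of this line, and it assessed transfection by qPCR of Bcl11b. It also reported presence calls on its arrays for most genes of its own striatal-enriched list.

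No ribosomal protein transcript differed between the groups once p-values were adjusted for the number of probes. In the limma fit, with Benjamini-Hochberg adjustment across the whole array, 0 of the 78 probes were past the adjusted limit of 0.10, which 0.981% of all probes passed. At an unadjusted p-value under 0.05 with a log2 change of at least 0.32 in size (the study's own fold limit), 1 member probe was higher and 1 was lower, where 3.2% and 5.81% of all probes were. These were a dim probe of Rps27a, higher, and the probe of Rps15a, lower, and they were also the only members at an unadjusted p-value under 0.05 without a limit on the fold. Among the 65 probes detected on all 8 arrays, 0 were higher and 1 was lower by this rule, against 3.8% and 10.5% of all probes so detected. In none of the 65 did the groups separate without overlap in either direction, which 2.5% of all detected probes did upwards and 7.38% downwards.

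The direction of the changes was nonetheless lopsided. Of the 65 probes, 56 had a log2 change above 0, against 46.6% of all probes detected on 8 arrays. The median log2 change was 0.25 over the members and -0.03 over all detected probes, a difference of 0.27. The subunits had like medians of 0.25 over 37 large-subunit probes and 0.24 over 28 small-subunit probes. Single changes ran from -0.52 for Rps15a to 0.92 for 1 of 2 probes of Rpl38, and the standard errors had a median of 0.28, larger than the median change. Members share their arrays and are not independent samples, so these counts describe 8 arrays and carry no test.

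**Figure D1:**
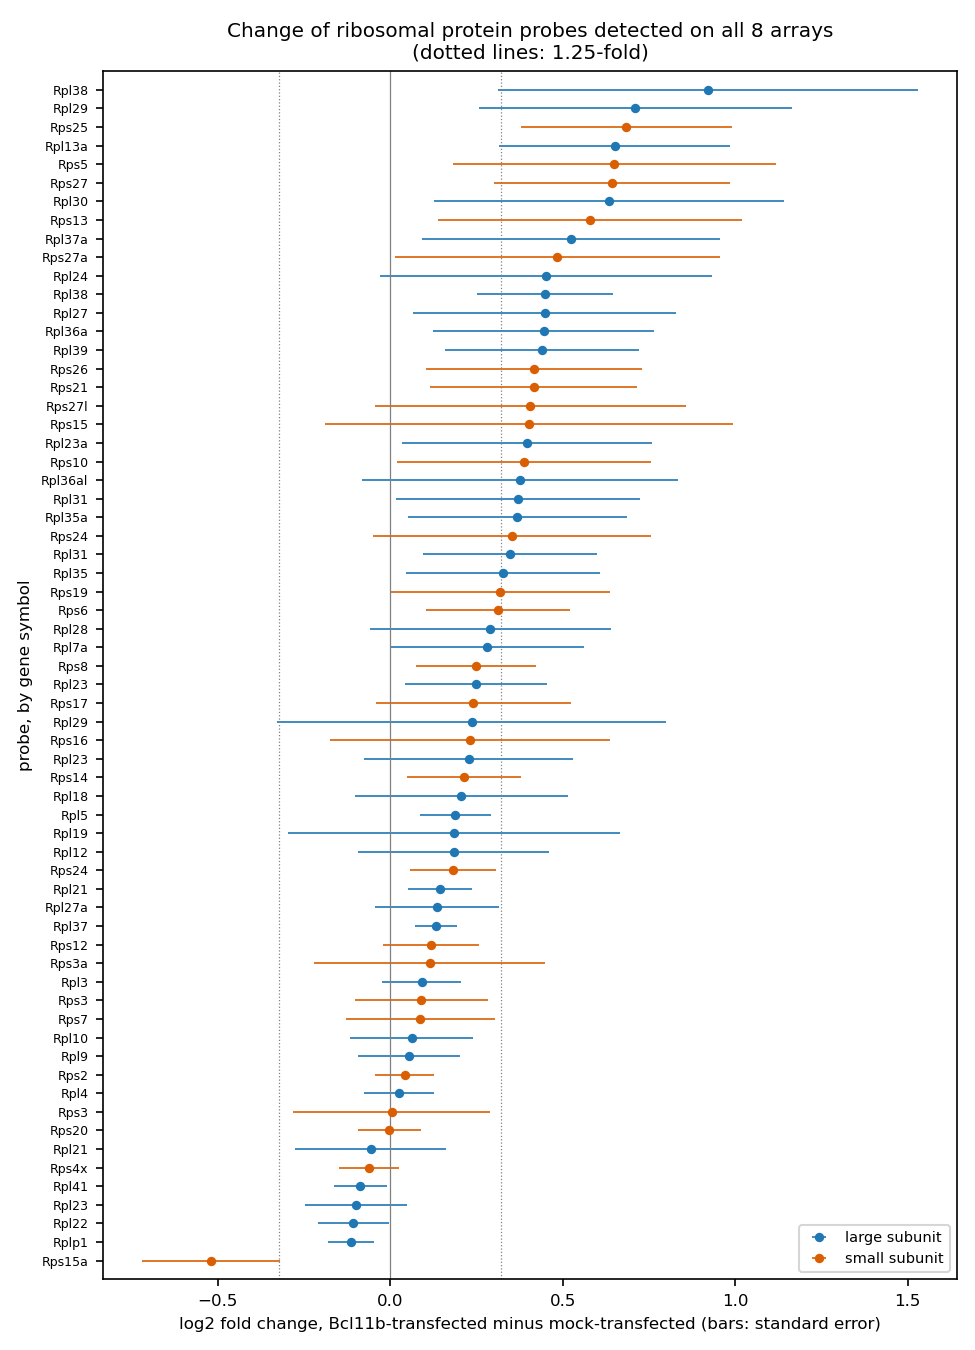
Log2 fold change (Bcl11b-transfected minus mock-transfected, x axis) of 64 of the 65 ribosomal protein probes detected on all 8 arrays, sorted by size and named by gene symbol, with bars for the standard error of the limma fit (4 arrays a group). Of the 64 points 56 lie above 0, and they run from -0.52 for Rps15a to 0.92 for a probe of Rpl38 (dotted lines, the fold limit of 0.32).

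What the members shared most was their level on single arrays. Measured against the median of all probes detected on 8 arrays, the median member stood 3.89, 3.29, 3.76 and 3.18 higher on mock arrays 1 to 4, on the log2 scale. On Bcl11b arrays 1 to 4 it stood 4.22, 4.18, 4.18 and 3.04 higher. Bcl11b arrays 1 to 3 were therefore above every mock array and Bcl11b array 4 below every one, and mock arrays 2 and 4 were below mock arrays 1 and 3. The share of the summed deposited signal that came from the 78 probes was 3.55%, 3.69%, 3.97% and 2.88% on the mock arrays and 5.97%, 5.77%, 6.34% and 3.23% on the Bcl11b arrays. By this measure too Bcl11b arrays 1 to 3 were above every mock array, but Bcl11b array 4 lay within the range of the mock arrays, above mock array 4.

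**Figure D2:**
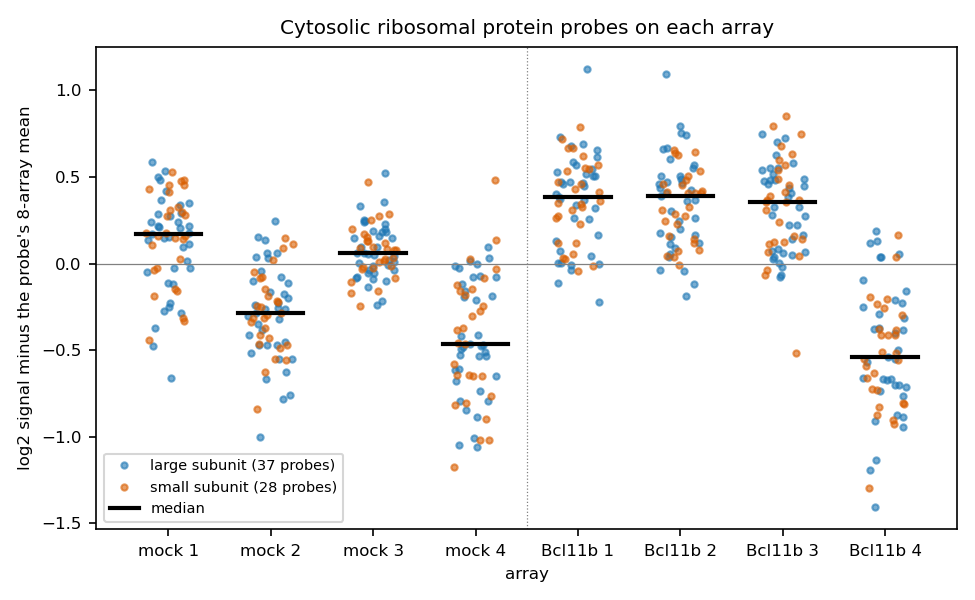
Log2 signal of each of the 65 probes minus its own mean over the 8 arrays (y axis) on each array (x axis), in blue for the large and orange for the small subunit, with a black line for the median of the array. Medians of 0.39, 0.39 and 0.36 on Bcl11b arrays 1 to 3 stand against -0.54 on Bcl11b array 4 and -0.47 on mock array 4, and the colours lie mixed on every array.

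The pattern held probe by probe. Bcl11b array 4 was the lowest of the Bcl11b arrays for 58 of the 65 probes, against 30.5% of all detected probes. It was the highest of the Bcl11b arrays for 3 of the 65, against 4679 of the 9360 detected probes. Bcl11b array 4 was thus often at an extreme of its group among all detected probes, mostly the high one, and not only for the members. It lay below every mock array for 36 of the 65 probes, against 26.3% of all detected probes. Bcl11b arrays 1, 2 and 3 all lay above every mock array for 34 of the 65, against 9.99% of all detected probes. Mock array 4 was the lowest of the mock arrays for 40 of the 65, against 19.9% of all detected probes, and mock array 1 the highest for 42, against 27.4%. The 7 members for which Bcl11b array 4 was not the lowest were Rpl21, Rpl22, Rpl3, Rpl41, Rpl5, Rps12 and Rps20.

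The members varied more over the arrays than probes of like signal, though only slightly more above a mean of 14. The part of the shared movement in this was not tested. The median standard deviation within groups was 0.41 for the 65 members and 0.26 for all detected probes. Among probes with a mean log2 signal from 12 to 13, the difference between the highest and lowest of the 8 arrays had a median of 1.55 for 7 members and 0.67 for all 698 probes. From 13 to 14 it was 1.17 for 22 members and 0.59 for all 281. Above 14 it was 0.54 for 18 members and 0.51 for all 58, with median standard deviations within groups of 0.19 and 0.16. The classes of all probes include the members. The brightest members thus varied only slightly more than their class as a whole. After quantile normalization the brightest probe stood at 14.76 on every array, so probes above 14 had little room to rise. This also limits the changes given below for such members.

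**Figure D3:**
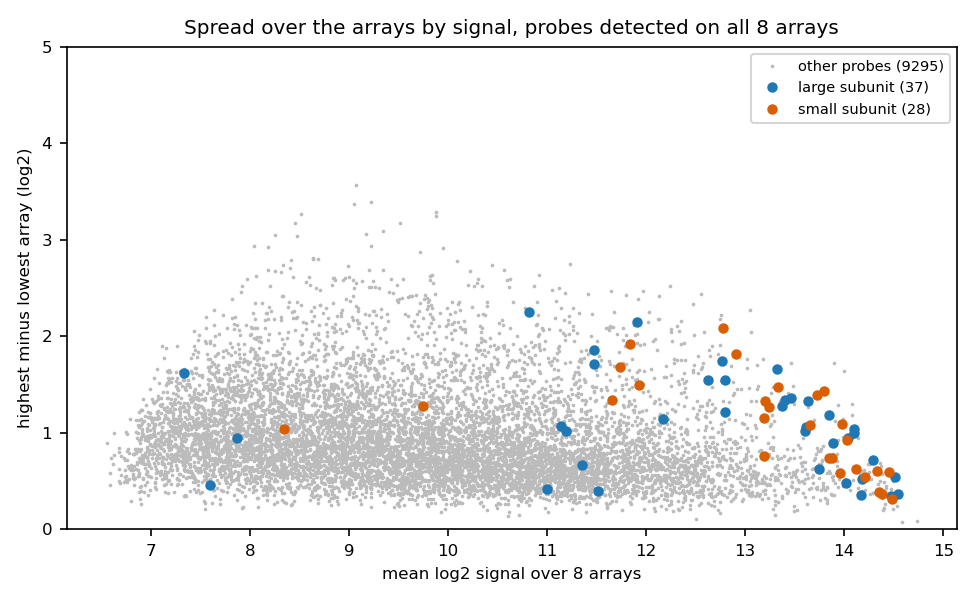
Difference between the highest and the lowest of the 8 arrays (y axis, log2) against the mean log2 signal (x axis) for all probes detected on all 8 arrays, with large-subunit members in blue, small-subunit members in orange and other probes in grey. Members with a mean signal between 11 and 14 sit mostly in the upper part of the grey cloud, and those above 14 lie lower.

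In the large subunit, Rplp1, one of the acidic P proteins of the stalk that recruits the elongation factors, stood at 14.68, 14.58, 14.60 and 14.54 on the mock arrays and 14.50, 14.50, 14.61 and 14.32 on the Bcl11b arrays. Its log2 change was -0.11 (SE 0.07, adjusted p = 0.671, limma), and the groups overlapped. Rplp2, its partner, was not detected, and no probe carried the symbol Rplp0. Rpl5, which carries the 5S rRNA into the subunit, stood at 13.74, 14.16, 13.80 and 14.01 in mock and 14.02, 14.22, 14.07 and 14.15 in Bcl11b (log2 change 0.19, SE 0.10, adjusted p = 0.651). Rpl11, with which it forms the 5S particle, was not on the array under that symbol.

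Rpl3, which lies beside the peptidyl transferase centre, and Rpl10, which joins the subunit late in its assembly, both had small changes. Rpl3 had levels of 13.81, 14.33, 14.12 and 14.27 in mock and 14.18, 14.22, 14.27 and 14.23 in Bcl11b, a change of 0.09 (SE 0.11). Rpl10 had 14.04, 14.25, 14.53 and 14.22 in mock and 14.63, 14.47, 14.27 and 13.92 in Bcl11b, a change of 0.06 (SE 0.18). The muscle paralog Rpl3l was not detected on any array.

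Rpl13a, known for silencing the translation of interferon-induced mRNAs when released from the ribosome, was among the members with a larger difference. It stood at 11.65, 11.01, 11.48 and 10.47 in mock and 11.95, 11.92, 12.18 and 11.16 in Bcl11b (log2 change 0.65, SE 0.33, adjusted p = 0.614). Bcl11b arrays 1 to 3 lay above every mock array and Bcl11b array 4 lay among them. Rpl38, which in the mouse embryo is needed to translate a subset of Hox mRNAs, had 2 detected probes. The brighter stood at 13.62, 13.79, 14.19 and 13.88 in mock and 14.61, 14.40, 14.42 and 13.84 in Bcl11b (change 0.45, SE 0.20, adjusted p = 0.516). The dimmer stood at 11.03, 9.82, 10.81 and 9.77 in mock and 11.94, 11.91, 11.56 and 9.68 in Bcl11b (change 0.92, SE 0.61, adjusted p = 0.727). Both put Bcl11b arrays 1 to 3 above all mock arrays and Bcl11b array 4 within or below them, and the dimmer probe, with the larger change, also had the wider spread.

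Rpl39, a small protein that lines the exit tunnel, stood at 13.76, 13.14, 13.56 and 13.10 in mock and 14.07, 14.12, 14.02 and 13.11 in Bcl11b (change 0.44, SE 0.28, adjusted p = 0.711). Rpl37 had a change of 0.13 (SE 0.06, adjusted p = 0.530) for the 1 of its 3 probes that was detected, and Rpl29 one of 0.71 (SE 0.45) for its dimmer probe and 0.24 (SE 0.56) for its brighter one. Rpl41, whose product is among the shortest proteins known, went the other way, with 14.45, 14.53, 14.63 and 14.45 in mock and 14.36, 14.28, 14.48 and 14.59 in Bcl11b (change -0.09, SE 0.08, adjusted p = 0.802). Rpl22, which is dispensable for ribosomes but needed for the development of T cells, stood at 11.14, 10.88, 11.14 and 11.03 in mock and 10.77, 10.88, 10.93 and 11.18 in Bcl11b (change -0.11, SE 0.10, adjusted p = 0.802). Neither passed any test, and for both Bcl11b array 4 was the highest and not the lowest of its group.

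The near-identical proteins Rpl36a and Rpl36al are encoded by separate genes with separate probes. Rpl36a changed by 0.44 (SE 0.32) and Rpl36al by 0.38 (SE 0.46), with Bcl11b array 4 at 12.13 and 11.85 against 13.27 to 13.35 and 13.34 to 13.39 on the other Bcl11b arrays. Rpl23, which sits at the interface between subunits and can bind Mdm2, had 3 detected probes with changes of -0.10, 0.23 and 0.25, and Rpl21 had 2 with changes of -0.06 and 0.14. Probes of a single gene thus differed in sign, with none of these changes past an unadjusted p-value of 0.05. The paralogs Rpl22l1, Rpl10l, Rpl39l, Rpl7l1 and Rpl7 had no probe under these symbols.

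In the small subunit, Rps6, the substrate of the S6 kinases downstream of mTOR, stood at 13.04, 12.94, 13.34 and 12.80 in mock and 13.55, 13.46, 13.56 and 12.80 in Bcl11b. The change was 0.31 (SE 0.21, adjusted p = 0.730). Rps3, which lines the entry of the mRNA channel and also acts in DNA repair, had 2 probes with changes of 0.09 and 0.00. Rps19, the gene first found mutated in Diamond-Blackfan anemia, changed by 0.32 (SE 0.32), with Bcl11b arrays 1 to 3 between 14.34 and 14.39 and Bcl11b array 4 at 13.43.

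Rps25, which initiation at internal ribosome entry sites depends on, had the smallest p-value among the higher small-subunit probes detected on all 8 arrays. It stood at 11.74, 11.63, 11.69 and 11.29 in mock and 12.55, 12.33, 12.78 and 11.41 in Bcl11b (log2 change 0.68, SE 0.31, adjusted p = 0.523). Rps27, a zinc finger protein, stood at 13.16, 12.78, 13.03 and 12.55 in mock and 13.87, 13.85, 13.84 and 12.54 in Bcl11b (change 0.64, SE 0.34, adjusted p = 0.637). Its paralog Rps27l, a known p53 target, changed by 0.41 (SE 0.45), from 13.81, 12.77, 13.41 and 12.51 to 13.88, 13.86, 13.93 and 12.46. In all 3 genes Bcl11b arrays 1 to 3 lay within 0.45 of each other and array 4 lay far below them.

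Rps15a was the only member detected on all 8 arrays that was lower at an unadjusted p-value under 0.05. It stood at 8.32, 8.46, 8.81 and 8.83 in mock and 8.30, 8.42, 7.83 and 7.79 in Bcl11b, a log2 change of -0.52 (SE 0.20, adjusted p = 0.438, limma), that is, 1.43-fold lower. Bcl11b arrays 1, 3 and 4 were below every mock array, array 1 only just, and Bcl11b array 2 lay above mock array 1. The probe was dim for a member, and with the fold limit as well no member was lower when any one of mock arrays 2, 3 and 4 or Bcl11b arrays 3 and 4 was left out. Rps4x, encoded on the X chromosome, changed by -0.06 (SE 0.09).

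Rps27a encodes a fusion of ubiquitin with a ribosomal protein, so its mRNA also supplies ubiquitin. Its bright probe changed by 0.48 (SE 0.47, adjusted p = 0.802). Its second probe passed detection on 2 Bcl11b arrays and on 0 mock arrays. The limma fit gave this probe a log2 change of 1.34 (adjusted p = 0.275, limma). Its Bcl11b mean was 1.16-fold above the dimmest detected signals of the mock arrays. That mean includes arrays on which the probe was not detected, so it is no lower bound. The normalized levels of this dim probe did not overlap, at 5.88, 5.09, 5.17 and 4.67 in mock and 6.96, 6.12, 7.12 and 5.96 in Bcl11b. It was detected only in the group where it was higher, so the separation adds no support for a difference.

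The 10 probes detected on no array were the only probes of Rplp2, Rpl14, Rpl6, Rps23, Rpl17 and Rpl3l, 2 probes of Rpl37, and 1 each of Rpl4 and Rpl23. All but the muscle form Rpl3l are constant parts of the ribosome, so a probe at background here says nothing about the gene. A second probe each of Rpl27a and Rps19 was detected on 3 and 5 arrays. Ribosomal protein genes have many processed pseudogenes, and the deposited table pairs probes with symbols and holds no probe sequence, so hybridization to pseudogene transcripts was not tested.

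The size of the members' change depended on 1 array and on how the arrays were scaled. Without Bcl11b array 4, the median log2 change of the 65 probes was 0.53, against -0.06 for all detected probes, and without mock array 1 it was 0.38. Without Bcl11b array 4, 24 of the 65 were higher and 0 lower at an unadjusted p-value under 0.05 with the fold limit, where 7.83% and 11.8% of all detected probes were, and no member reached an adjusted p-value under 0.10. Rps27 came closest with a change of 0.96 (adjusted p = 0.105, limma, 3 Bcl11b and 4 mock arrays), followed by Rps25 with 0.97 (adjusted p = 0.105). When all 8 arrays were instead scaled by their medians, the median change was 0.78 for the members and 0.07 for all detected probes. Under that scaling 20 of the 65 were higher and 0 lower by the same rule, against 8.11% and 6.62% of all detected probes, again with none past the adjusted limit.

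The brightest members had like deposited signals in both groups, while the array medians were lower in Bcl11b. Rps2 had deposited signals of 22517, 19924, 25558 and 20438 in mock and 27123, 22993, 22364 and 18788 in Bcl11b. Dividing by the array medians given earlier turns such a probe upwards, whereas quantile normalization holds it in place near the top of the distribution. With no normalization at all the median change of the members was 0.03 and that of all detected probes -0.68. Rplp1, Rpl41 and Rps4x, lower under quantile normalization, were higher under division by the median, at 0.65, 0.72 and 0.71.

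**Figure D4:**
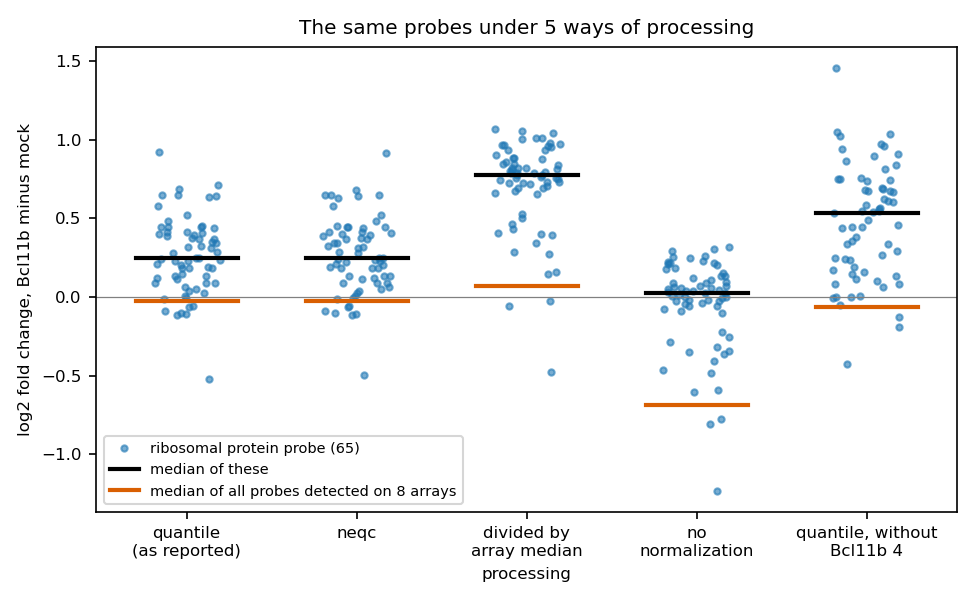
Log2 fold change (Bcl11b minus mock, y axis) of the 65 probes under 5 ways of processing (x axis), with a black line for their median and an orange line for the median of all probes detected on all 8 arrays. The black line lies at 0.25 with quantile normalization, 0.78 after division by the array median, 0.03 without normalization and 0.53 without Bcl11b array 4, each time above the orange line.

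Other lists of ribosome production held few calls, against 3.8% higher and 10.5% lower among all detected probes by the rule of p and fold. Of 24 detected probes for ribosome biogenesis factors, 1 (Nip7, which acts in 60S assembly, log2 change 0.41, SE 0.17, adjusted p = 0.458) was higher and 0 were lower at an unadjusted p-value under 0.05 with the fold limit, and the median change was 0.18. For RNA polymerase I, which transcribes the rRNA, its factors and Myc, the counts were 0 and 0 of 7 with a median of 0.32. Several of these probes were for Znrd1 (0.32, 0.37 and 0.73), and the others for Myc (0.42), Ubtf (0.22), Rrn3 (-0.11) and Tcof1 (-0.23). For mTOR and the proteins that control TOP mRNAs the counts were 0 and 0 of 11 with a median of -0.08. Against the median of all detected probes, the biogenesis factors stood at 1.88, 1.96, 1.86 and 1.87 on the mock arrays and 2.09, 2.04, 1.96 and 2.16 on the Bcl11b arrays, with Bcl11b array 4 the highest.

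Other mRNAs with a TOP motif, many of which code for translation factors, were lowest as a list on mock array 4, while their level on Bcl11b array 4 was close to that on the other Bcl11b arrays. Of their 23 detected probes 0 were higher and 0 lower, with a median change of 0.15, and they stood at 2.91, 3.24, 2.93 and 2.65 on the mock arrays and 3.23, 3.14, 3.15 and 3.09 on the Bcl11b arrays. Within the list, Fau, like Rps27a, encodes a ribosomal protein fused to a ubiquitin-like one. The Fau probe stood between 13.19 and 13.50 on Bcl11b arrays 1 to 3 and at 11.60 on array 4. On mock arrays 1 to 4 it stood at 12.997, 12.01, 12.44 and 11.46, so mock array 1 was close to the lowest of Bcl11b arrays 1 to 3. A probe of Eef2, the translocation factor of elongation, had 11.82, 13.44, 12.59 and 12.42 in mock and 12.51, 12.61, 12.87 and 13.73 in Bcl11b. On Bcl11b array 4 the Fau probe was thus far below the other Bcl11b arrays and just above mock array 4, and the Eef2 probe was at its highest. Both genes were picked for these sentences after their values were seen.

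The mitochondrial ribosomal proteins, which are encoded in the nucleus, have no TOP motif as a class and build a separate ribosome, had the same order of arrays as the cytosolic ones. Their 88 detected probes stood at 1.26, 0.66, 1.04 and 0.40 on the mock arrays and 1.46, 1.31, 1.37 and 0.25 on the Bcl11b arrays against the median of all detected probes. Their median change was 0.27, with 73 of 88 above 0. By the rule of p and fold 3 were higher (2 probes of Mrpl49 and 1 of Mrpl43) and 1 was lower (Mrpl15), and without Bcl11b array 4 there were 26 higher and 0 lower. Of all detected probes, 3.8% were higher and 10.5% lower with all arrays, and 7.83% and 11.8% without Bcl11b array 4.

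The span of the gene moved with this order of arrays. From start to end in GRCm38.p6, the median span was 3.55 kb for the 65 member probes and 22.4 kb for the 8975 other detected probes with a RefSeq span, mitochondrial ribosomal proteins left out. A span includes introns, so it is an upper limit on the length of the mRNA and not that length. For 183 probes of other genes under 2 kb, the median deviation from the probe's 8-array mean was 0.27, -0.35, 0.03 and -0.70 on mock arrays 1 to 4 and 0.53, 0.41, 0.56 and -0.69 on Bcl11b arrays 1 to 4, in log2. For the 65 members it was 0.17, -0.29, 0.06 and -0.47, then 0.39, 0.39, 0.36 and -0.54. For 1726 probes of genes over 60 kb it was -0.09, 0.11, 0.03 and 0.17, then -0.09, -0.07, -0.12 and 0.13. Short genes that are not ribosomal proteins were thus low on the same 3 arrays as the members, and long genes were slightly high there.

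**Figure D5:**
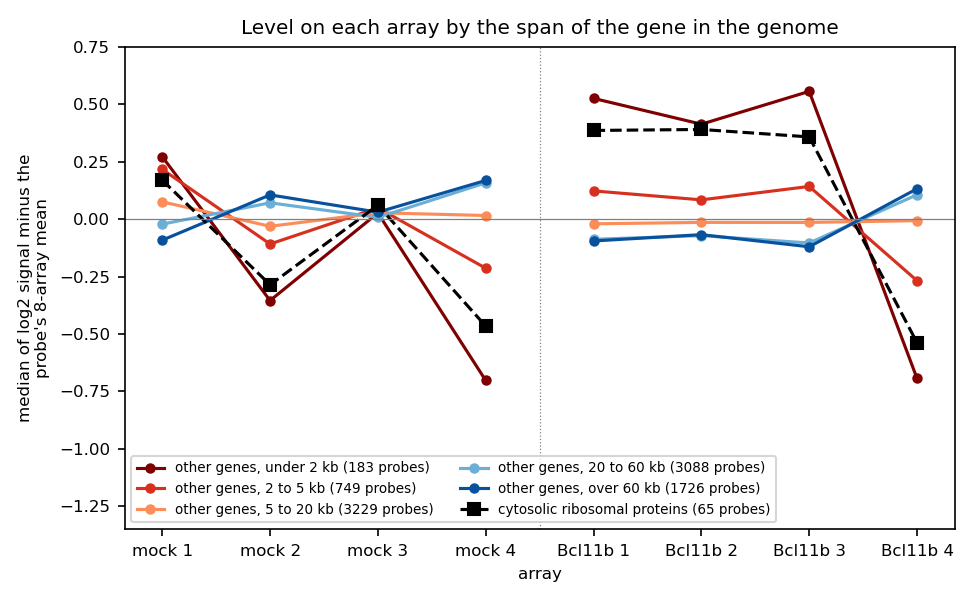
Median, over probes, of the log2 signal minus the probe's 8-array mean (y axis) on each array (x axis), for other genes in 5 classes of span in the genome (coloured, from dark red for under 2 kb to dark blue for over 60 kb) and for the 65 ribosomal protein probes (black squares); lines within a group only join its points. On Bcl11b array 4 the medians run from -0.69 for genes under 2 kb to 0.13 for genes over 60 kb, with the ribosomal proteins at -0.54.

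Within a span class the difference from other genes was smaller for the shortest genes. Under 2 kb, the median log2 change was 0.39 for 8 members and 0.36 for the other genes. From 2 to 5 kb it was 0.28 for 43 members and 0.09 for 749 other probes, and from 5 to 20 kb 0.14 for 14 members and -0.01 for 3229. The part of gene span, and of the transcript length or RNA quality that could go with it, in the members' values was not tested.

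Partners of the ribosomal proteins in the p53 response formed a further list. Of 9 detected probes for 5S particle and p53 partners, 4 were higher and 0 lower by the rule of p and fold, 3 of them for Cdkn1a, the cell cycle inhibitor that p53 induces, and 1 for Mdm2, the ubiquitin ligase that degrades p53. The 4 calls thus came from 2 genes, beside 3.8% higher and 10.5% lower among all detected probes. A Cdkn1a probe stood at 10.70, 10.21, 9.76 and 10.10 in mock and 11.24, 11.13, 11.26 and 11.15 in Bcl11b, a log2 change of 1.00 (SE 0.19, adjusted p = 0.131, limma), and the other Cdkn1a probes changed by 0.67 and 1.43. The Mdm2 probe stood at 12.01, 12.40, 12.16 and 12.48 in mock and 12.73, 12.75, 12.64 and 13.04 in Bcl11b (change 0.52, SE 0.14, adjusted p = 0.234). In these 4 probes all Bcl11b arrays, array 4 included, lay above all mock arrays, as did 2.5% of all detected probes, and none passed the adjusted limit. The rule used these same values and favours probes whose Bcl11b arrays lie close together. The position of array 4 in the called probes is therefore no separate result. A second Mdm2 probe changed by 0.43 with overlapping groups, and Trp53, which encodes p53, by 0.16 (SE 0.19). The remaining probes on this list, for Rrs1 and Bxdc1, were not called and had Bcl11b array 4 as the lowest of its group (7.74 for Rrs1, 7.31 and 11.83 for Bxdc1).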

How the data were processed

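The authors deposited 1 intensity per probe (average bead signal, background-subtracted in GenomeStudio per the labels and methods, not normalized) with a detection p-value. Between 30.6% and 31.6% of an array's signals were at or below 0. After the study's methods, signals were quantile-normalized, floored at 1, transformed to log2 and compared with limma 3.58.1 (lmFit, eBayes, R 4.3.3) over all 25697 probes without covariates, 4 arrays a group, with Benjamini-Hochberg adjustment at 0.10, or unadjusted p 0.05 with the study's fold limit (0.32 in log2). Precision is limited by the number of arrays. The study describes 4 different transfected cell sets, while the labels do not say whether samples were separate cultures. No arrays were identical, and the fit was tested on simulated data.

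Members and lists were chosen with earlier results of these data known, and gene span was examined after the values were seen. Named genes are the 8 members with the smallest p in each direction, plus members with defined roles and paralogs; 1 gene is not reported here. Spans, positions and sequences are from RefSeq (GRCm38.p6), by symbol or an older symbol naming 1 gene. Alternatives covered normalization, neqc, an offset of 16, detection filters, replicate block, limma-trend, arrayWeights, 1 probe per symbol, the fold limit, and leaving out arrays.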

Additional observations from a re-analysis of the deposited data

Results flagged for a closer look

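Bcl11b array 4 lay far from the other 3 Bcl11b arrays in 10 of 25 sets of Bcl11b values examined (the gap to its neighbour over the whole range exceeded Dixon's critical value for 4 values) against 0 of 25 sets of mock values. Chance gives about 1 set in 20, but these sets come from the same 4 arrays and are not independent. The median member stood 3.04 above the median of all detected probes there. The single members so set apart, with their log2 signals on that array, were Rps27 (12.54), Rpl29 (6.67, dimmer probe), Rpl39 (13.11), Rpl36a (12.13), Rpl36al (11.85), Rps19 (13.43), Rps27a (10.91), Rps27l (12.46) and Rps6 (12.80). Over all 65 members detected on 8 arrays, 35 (53.8%) had Bcl11b array 4 set apart on the low side. The share of all 9360 detected probes was 8.23%. With any array and either side counted, the Bcl11b group had 35 of 65 members and 15.2% of all detected probes set apart. In the mock group 2 of 65 members and 4.28% of all detected probes had any array set apart.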

How the results depend on the processing

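No member passed the adjusted limit under any alternative planned, and 4 did when division by the array median and leaving out Bcl11b replicate 4 were combined, an alternative added after seeing the data. That combination gave 60 members higher and 0 lower by p and fold, a median change of 1.06 and a difference from all detected probes of 1.03. Members higher, 1 as reported, numbered 0 without normalization and with 1 probe per symbol, 2 with each of the 3 detection filters, 3 with neqc, 19 and 21 after division by the median of detected or of all probes, 26 with arrayWeights, and 1 to 26 with arrays left out (26 without Bcl11b replicate 4, 2 without mock replicate 3). Members lower, 1 as reported, numbered 4 without normalization, 0 with arrayWeights and after division by the median of all probes, and 0 to 1 with arrays left out (0 without mock replicate 2, 3 or 4 or Bcl11b replicate 3 or 4). The median change was 0.78 after division by the median of all probes and 0.17 to 0.53 with arrays left out (0.38 without mock replicate 1), that is, 0.19 to 0.60 relative to all detected probes. Without normalization the median of all probes shifted by -0.49.

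With the replicate block 7 members were higher and 0 lower. The labels do not say whether the replicate numbers pair the samples. Deviations of same-numbered arrays correlated at 0.68, -0.63, 0.18 and 0.70. Those of differently numbered arrays were also positive for some and negative for others, so the correlations do not settle whether the samples were paired. Rplp1, Rpl41 and Rps4x turned upwards after division by the median of all probes (0.65, 0.72 and 0.71), of detected probes (0.60, 0.67 and 0.65) and in the added combination (0.82, 0.73 and 0.89), where a probe of Rpl23 turned to 0.62. A probe of Rpl23 also turned to 0.40 and 0.34 after division by the median of all or of detected probes, and one of Rpl21 to 0.048 with arrayWeights. Without normalization, probes of Rpl10 (-0.022), Rpl29 (-0.023), Rpl3 (-0.0021), Rpl36al (-0.035), Rps27a (-0.089), Rps3 (-0.079) and Rps6 (-0.056) turned downwards. With arrays left out, ranges that crossed 0 were -0.038 to 0.19 for Rpl10, -0.019 to 0.15 for Rpl3, -0.012 to 0.24 for Rps3, -0.21 to 0.11 for Rpl21, -0.19 to 0.0056 for Rpl23 and -0.12 to 0.00056 for Rps4x. In all, 29 values of named members changed sign, 19 of them with an unadjusted p-value over 0.05 both as reported and under the alternative. The causes were not tested. Of the rest, 402 kept direction and side of the unadjusted threshold, 62 passed it newly and 9 no longer passed it.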
